A study of Mus musculus with 2 samples.

Results

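Laminin chain genes encode the subunits of laminin, the cross-shaped glycoprotein on which basement membranes are built. The 9 genes described here were taken by name from the authors' deposited table of 23176 genes. They are the alpha chain genes Lama1, Lama2, Lama3, Lama4 and Lama5, the beta chain genes Lamb1, Lamb2 and Lamb3, and the gamma chain gene Lamc1. Gene expression had been measured by sequencing of polyadenylated RNA in a pair of mouse striatal lines derived from embryonic day 14 (strain 129SvEv/CD1). STHdhQ111 has the genotype HdhQ111/Q111, with an expanded polyglutamine tract in huntingtin, and STHdhQ7 has the genotype HdhQ7/Q7. Both lines were used at passages below 15, grown at 33 °C and held at 39 °C for 2 days before each experiment to stop division. There is 1 line per genotype, so an effect of genotype and one of the separate line cannot be told apart.

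A laminin molecule joins 1 alpha, 1 beta and 1 gamma chain. The alpha chain is the part that cells bind, through integrins and dystroglycan, and it sets much of a laminin's tissue distribution. The beta and gamma chains complete the trimer, and the short arms of most chains link laminins into a sheet. In the brain, laminins lie in the membranes around blood vessels, at the pial surface and near the ventricles, where neural progenitors touch them.

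The title of each of the 2 samples names 3 replicates, but each line has 1 combined FPKM value per gene (a fragment count scaled by transcript length and library size). No replicate spread and no own test could therefore be had, and the sequencing depth is unknown. The authors tested 12740 genes, and a gene is referred to as called where their q is 0.05 or less. By the authors' deposited table, 6.35% of tested genes were higher and 7.17% lower in STHdhQ111 at that threshold, 13.5% in all. The standard error implied by the authors' log2 fold change and statistic had a median of 0.44. As a check of the labelled cell type, all 5 listed striatal projection neuron markers were under 0.5 FPKM in both lines, and so were 4 of 5 neuron markers found. The neural progenitor markers Sox2, Pax6 and Nes were called lower in STHdhQ111. Slc1a3, of the same list, was listed at 5.04 FPKM in STHdhQ111 and 2.79 FPKM in STHdhQ7 and was not called. Fabp7 had no test. The 5 progenitor markers summed to 6.67 FPKM in STHdhQ111 and 126 FPKM in STHdhQ7. The part of these differences in the laminin results was not tested. In bulk samples, fewer cells that express a gene and less RNA per cell cannot be told apart.

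The STHdhQ111 line carried far more Lama4 RNA and less Lama2 RNA than STHdhQ7, while the abundant laminin chain genes were not called. Of the 9 genes, 6 had a test and 3 (Lama1, Lama3 and Lamb3) were given the status NOTEST. Among the 6, Lama4 was called higher and Lama2 lower in STHdhQ111, and Lama5, Lamb1, Lamb2 and Lamc1 were not called. These 2 calls of 6 stand beside the 13.5% of all tested genes, and so small a number says little about the family as a whole. No locus of another gene in the table overlapped a locus of the 9 genes, so none of them shares a listed locus with an antisense or overlapping gene.

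**Figure D1:**
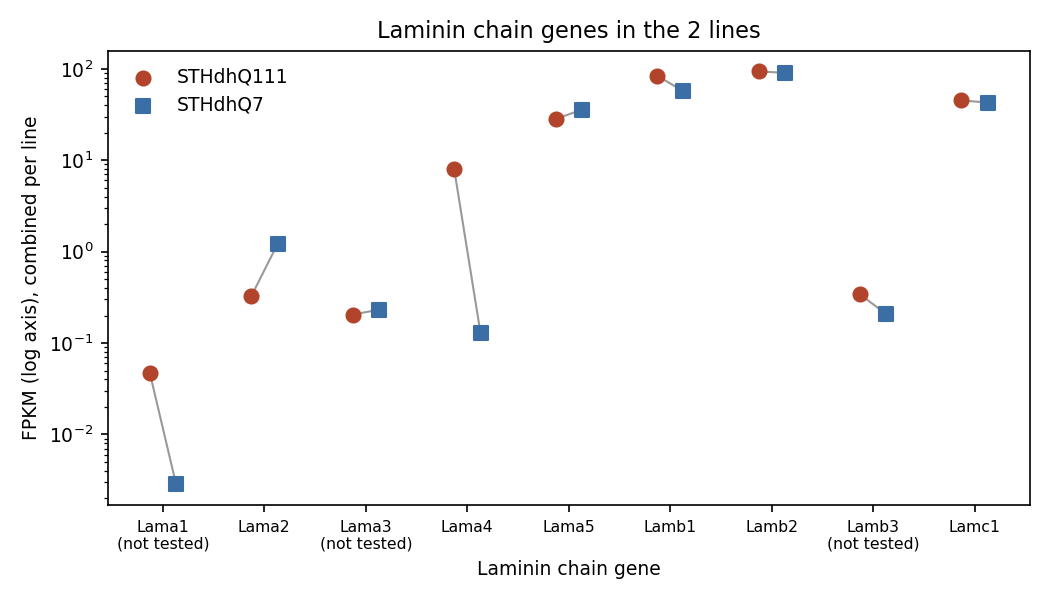
FPKM of the 9 laminin chain genes on a log axis, with 1 combined value per line (circles STHdhQ111, squares STHdhQ7) and a grey line joining the values of 1 gene. Lama5, Lamb1, Lamb2 and Lamc1 lie above 20 FPKM in both lines, and Lama4 is at 8.07 FPKM in STHdhQ111 and 0.129 FPKM in STHdhQ7.

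The promoter sequences of the alpha chain genes Lama2, which was called, and Lama5, which was not, are shown because the called genes were both alpha chain genes. The RefSeq promoters held no entry for Lama4, the other called gene, so its window could not be shown. Each is the 250 bases before the RefSeq start, read 5′ to 3′ on the gene's strand in build GRCm38.p6, with CG dinucleotides, the sites of DNA methylation, in capitals. Lama2 lies on the minus strand at chr10:27616943-27617192 and Lama5 on the minus strand at chr2:180225860-180226109.
Lama2: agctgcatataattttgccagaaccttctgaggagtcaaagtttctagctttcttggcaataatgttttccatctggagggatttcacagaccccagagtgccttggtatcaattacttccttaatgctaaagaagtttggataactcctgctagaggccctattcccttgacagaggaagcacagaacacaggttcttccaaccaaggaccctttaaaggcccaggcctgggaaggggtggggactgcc
Lama5: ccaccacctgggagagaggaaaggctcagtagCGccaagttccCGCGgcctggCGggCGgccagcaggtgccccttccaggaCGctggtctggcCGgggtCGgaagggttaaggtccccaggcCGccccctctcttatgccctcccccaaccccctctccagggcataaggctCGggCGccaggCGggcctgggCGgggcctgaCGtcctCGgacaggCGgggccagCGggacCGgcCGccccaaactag
The Lama2 window held 0 CG dinucleotides and the Lama5 window 19. Of the 32851 promoter windows of the same length in the RefSeq table, 7.87% had no CG, and 80.3% had fewer than Lama5. Lamb1 had 14 CG dinucleotides, Lamb2 had 3, and the 2 windows of Lamb3 had 2 and 3. The windows of Lama2 and Lama5 overlapped no GENCODE M21 exon, whereas that of Lamb1 overlapped 1 exon, that of Lamb2 2 exons, and those of Lamb3 1 and 2 exons. The start in use in these cells is not known, so no relation between these counts and the levels is read. The letters GGGCGG, searched on both strands, were found in the windows of Lama5 and Lamb1 and in 32.7% of all windows. CCAAT was found in Lamb1 and in 33.8% of all windows. TATAAA and TGANTCA were found in none of the windows of these 5 genes, and in 12.4% and 6.75% of all windows. These are matches of letters only, and methylation of these windows was not analysed here.

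Lama4 encodes the alpha chain of laminins in blood vessel walls and mesenchymal tissues, a chain that lacks the long short arm of most of its relatives. Its longest coding sequence in GENCODE M21 spans 5448 bases, against 9249 to 11154 bases for the longest of each other alpha chain gene. Shorter transcripts of these genes were not compared. The Lama4 locus is on chromosome 10 at 38685321 to 38829994 (mm9). Lama4 was listed at 8.07 FPKM in STHdhQ111 and 0.129 FPKM in STHdhQ7, which is 62.6-fold. The authors' deposited table gives Lama4 a log2 fold change of 5.97 (implied standard error 0.56) and a q of 0, below its printed precision. The implied 95% interval of the fold for Lama4 ran from 29.3 to 134. The size of the fold rests on a value near 0 in STHdhQ7, and the log2 ratio of Lama4 was 5.16 with 0.1 FPKM added to each line and 3.01 with 1 FPKM added. Lama4 owed its test to STHdhQ111, since Lama3, at 0.205 FPKM in STHdhQ111 and 0.232 FPKM in STHdhQ7, was above Lama4's STHdhQ7 level in both lines and had no test. The change of Lama4 was steep but not singular, since 93 of the 12647 tested genes with a fold change, Lama4 among them, had a log2 fold change at least as high in the authors' deposited table.

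Markers of cell types known for Lama4 were set beside it. Of the 7 endothelial markers, 2 had a test, and Tek was called higher and Flt1 lower in STHdhQ111. The 7 summed to 2.42 FPKM in STHdhQ111 and 7.90 FPKM in STHdhQ7, and Cldn5 was at 0 in both lines. Pecam1 was listed at 0.0527 FPKM in STHdhQ111 and 0.0262 FPKM in STHdhQ7, and Cdh5 at 0.0121 FPKM in STHdhQ111 and 0.00477 FPKM in STHdhQ7. Tek was listed at 1.46 FPKM in STHdhQ111 and 0.386 FPKM in STHdhQ7, and Flt1 at 0.783 FPKM in STHdhQ111 and 7.45 FPKM in STHdhQ7. Without Flt1 the other 6 summed to 1.63 FPKM in STHdhQ111 and 0.45 FPKM in STHdhQ7, so the direction of the sum rests on that gene. The part of the endothelial genes in the Lama4 result was not tested. Of the 10 mesenchymal and mural markers, 8 had a test, and Col1a1, Col1a2 and Pdgfra were called higher in STHdhQ111 and the other 5 were not called. The 10 summed to 2623 FPKM in STHdhQ111 and 1016 FPKM in STHdhQ7, with none at 0 in both lines, and Rgs5 at 0 in STHdhQ7. Most of that difference lay in Col1a1 and Col1a2. Col1a1 was listed at 1487 FPKM in STHdhQ111 and 452 FPKM in STHdhQ7, and Col1a2 at 533 FPKM in STHdhQ111 and 11.5 FPKM in STHdhQ7. Acta2 (311 FPKM in STHdhQ111 and 342 FPKM in STHdhQ7) and Cspg4 (10.5 FPKM in STHdhQ111 and 16.4 FPKM in STHdhQ7) went the other way. The part of these mesenchymal genes in the Lama4 result was not tested.

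Lama2 encodes the alpha chain of muscle and peripheral nerve basement membranes, whose loss causes a congenital muscular dystrophy. Its locus is on chromosome 10 at 26701092 to 27336748 (mm9). Lama2 was listed at 0.323 FPKM in STHdhQ111 and 1.21 FPKM in STHdhQ7, which is 3.75-fold lower in STHdhQ111. The authors' deposited table gives Lama2 a log2 fold change of -1.91 (implied standard error 0.61) and a q of 0.0175. With 1 FPKM added to each line the log2 ratio of Lama2 was -0.74. Lama2 was low in both lines, and its call was lost at a q threshold of 0.01. It was also lost when the p-values were adjusted by Bonferroni, or over genes with a mean of at least 1 FPKM, which leaves Lama2 out. Of the 4 muscle markers, Des was called higher in STHdhQ111 and the other 3 had no test, with Myod1 and Myog at 0 in STHdhQ7. The 4 summed to 26.8 FPKM in STHdhQ111 and 9.02 FPKM in STHdhQ7. Nearly all of that sum was Des, at 26.6 FPKM in STHdhQ111 and 9.02 FPKM in STHdhQ7. The other 3 were under 0.5 FPKM in both lines, so the sum does not speak for the list. Of the 4 Schwann cell markers 2 had a test and were not called, none was at 0, and the 4 summed to 60.7 FPKM in STHdhQ111 and 57.6 FPKM in STHdhQ7.

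Lama2 and Lama4 lie on the same chromosome, 11349 kb apart, and were called in opposite directions. The nearest tested genes around Lama2 are Arhgap18, 62.6 kb away, and Ptprk, 458 kb away, and neither was called. Arhgap18 was listed at 6.51 FPKM in STHdhQ111 and 6.53 FPKM in STHdhQ7, and Ptprk at 34.7 FPKM in STHdhQ111 and 28.5 FPKM in STHdhQ7. Beside Lama4, 1700025K23Rik, 8.62 kb away, was listed at 3.9998 FPKM in STHdhQ111 and 3.39 FPKM in STHdhQ7 and was not called. No tested gene lay within 500 kb on the other side of Lama4. The tested neighbours of both called genes were thus not called.

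Lama5 encodes the alpha chain most widespread in mature basement membranes and was the main alpha chain gene of both lines. It lies on chromosome 2 at 179911078 to 179960564 (mm9). Lama5 was listed at 28.2 FPKM in STHdhQ111 and 35.8 FPKM in STHdhQ7. The authors' deposited table gives Lama5 a log2 fold change of -0.34 (implied standard error 0.39) and a q of 0.811. The implied 95% interval for Lama5 runs from a fold change of 0.463 to 1.34, so differences within that range could not be seen.

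Lama1 and Lama3 were the lowest alpha chain genes of STHdhQ111, and neither had a test. Lama1, an alpha chain of early embryonic membranes (chromosome 17, 68046605 to 68171985, mm9), was listed at 0.0476 FPKM in STHdhQ111 and 0.00285 FPKM in STHdhQ7. Lama3, an alpha chain of the laminin that anchors skin and other epithelia (chromosome 18, 12492533 to 12741521, mm9), was listed at 0.205 FPKM in STHdhQ111 and 0.232 FPKM in STHdhQ7. Lamb3, the beta chain of the same epithelial laminin (chromosome 1, 195128188 to 195170072, mm9), was listed at 0.341 FPKM in STHdhQ111 and 0.206 FPKM in STHdhQ7. At such levels no fold change is read from them. The 7 epithelial markers summed to 2.64 FPKM in STHdhQ111 and 7.21 FPKM in STHdhQ7. None of the 7 was at 0, and of the 2 tested Krt8 was called lower in STHdhQ111. The lower sum in STHdhQ111 rested on Krt8, at 1.4005 FPKM in STHdhQ111 and 6.13 FPKM in STHdhQ7. Of the 7, 5 were under 0.5 FPKM in both lines. Epcam, Krt5, Krt14 and Cldn4 were listed higher in STHdhQ111, and Cdh1 and Krt18 lower, so the sum does not speak for the list.

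FPKM is scaled to length, so the alpha chain genes can be added. The 5 alpha chain genes summed to 36.8 FPKM in STHdhQ111 and 37.3 FPKM in STHdhQ7, a ratio of 0.986. The sums were nearly equal, but their make-up was not. Lama5 made up 76.5% of the alpha sum in STHdhQ111 and 95.8% in STHdhQ7. Lama4 made up 21.9% of the alpha sum in STHdhQ111 and 0.345% in STHdhQ7. Lama2 made up 0.878% of the alpha sum in STHdhQ111 and 3.24% in STHdhQ7. The next alpha chain gene after Lama5 was therefore Lama4 in STHdhQ111 and Lama2 in STHdhQ7. Lama5 was listed at 3.49 times the FPKM of Lama4 in STHdhQ111 and at 277 times in STHdhQ7. These sums and shares rest on 1 combined value per line and carry no error of their own.

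**Figure D2:**
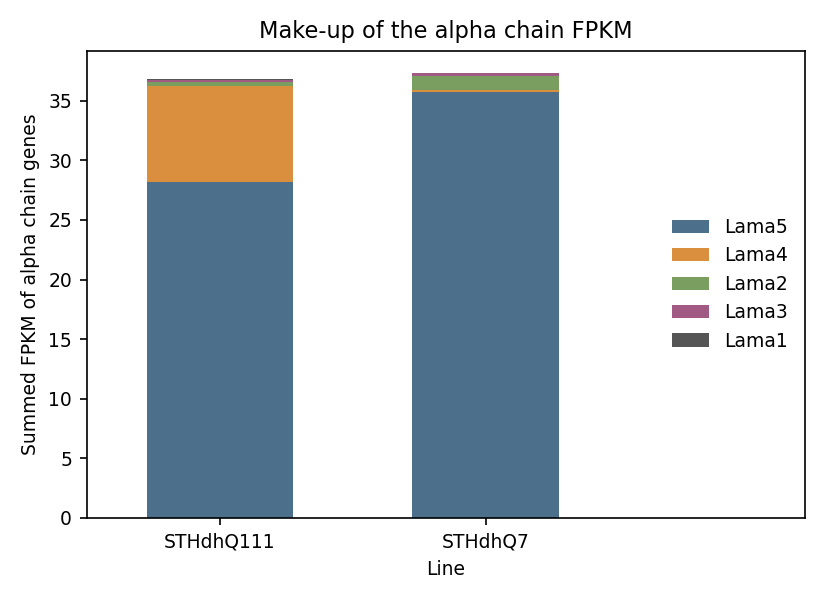
Summed FPKM of the 5 alpha chain genes in STHdhQ111 and STHdhQ7, stacked by gene, with 1 combined value per line and no error bars. The bars reach 36.8 FPKM in STHdhQ111 and 37.3 FPKM in STHdhQ7, and Lama4 fills 21.9% of the STHdhQ111 bar and 0.345% of the STHdhQ7 bar.

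The beta chain genes Lamb2 and Lamb1 and the gamma chain gene Lamc1 had the highest FPKM of the 9 genes in both lines. Lamb2, a beta chain concentrated at neuromuscular synapses and in the kidney filter (chromosome 9, 108382193 to 108392861, mm9), was listed at 93.6 FPKM in STHdhQ111 and 90.3 FPKM in STHdhQ7. The authors' deposited table gives Lamb2 a log2 fold change of 0.05 (implied standard error 0.41) and a q of 0.994. Lamb2 had a higher FPKM than 96.6% of the table's genes in STHdhQ111 and 96.5% in STHdhQ7.

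Lamb1, the beta chain of most other laminins (chromosome 12, 31950159 to 32014504, mm9), was listed at 83.9 FPKM in STHdhQ111 and 56.8 FPKM in STHdhQ7. The authors' deposited table gives Lamb1 a log2 fold change of 0.56 (implied standard error 0.39, 95% interval -0.21 to 1.33) and a q of 0.513. Lamc1, the gamma chain shared by most laminins (chromosome 1, 155066052 to 155179916, mm9), was listed at 45.1 FPKM in STHdhQ111 and 42.7 FPKM in STHdhQ7. For Lamc1 the authors' deposited table gives a log2 fold change of 0.08 (implied standard error 0.39) and a q of 0.988. The implied intervals of Lamb2 and Lamc1 allow fold changes between 0.594 and 1.81 for Lamb2 and between 0.624 and 1.79 for Lamc1, so smaller differences could not be seen.

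The beta chain genes summed to 178 FPKM in STHdhQ111 and 147 FPKM in STHdhQ7, with Lamb1 making up 47.2% of the sum in STHdhQ111 and 38.6% in STHdhQ7. The beta sum was 4.83 times the alpha sum in STHdhQ111 and 3.95 times in STHdhQ7. Lamc1 was 1.22 times the alpha sum in STHdhQ111 and 1.14 times in STHdhQ7. RNA of beta chains was thus listed above that of alpha and gamma chains in both lines. By FPKM, the order in both lines was Lamb2, Lamb1, Lamc1 and Lama5. Lama4 followed in STHdhQ111 and Lama2 in STHdhQ7. With no replicate spread, neighbours in this order cannot be separated by error, and Lamb2 was only 1.12 times Lamb1 in STHdhQ111, against 1.59 times in STHdhQ7.

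**Figure D3:**
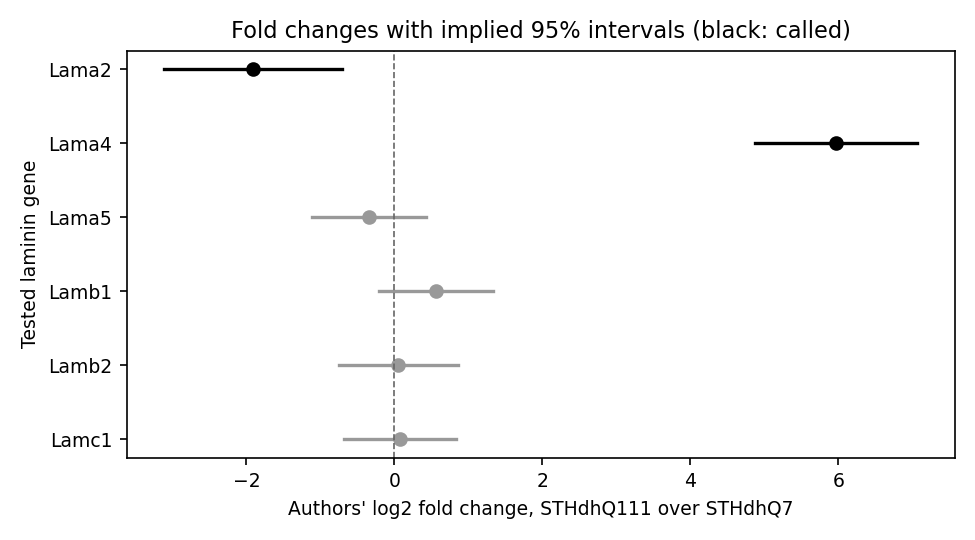
The authors' log2 fold change, STHdhQ111 over STHdhQ7, of the 6 tested laminin chain genes with lines for the 95% interval that the table's statistic implies. Black genes were called, with Lama4 at 5.97 and Lama2 at -1.91, and the intervals of the 4 grey genes include 0.

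A further gamma chain gene, Lamc3, was listed at 0.461 FPKM in STHdhQ111 and 0.122 FPKM in STHdhQ7 and had no test. Among tested genes of the lists below, those with the log2 fold change nearest to Lama2 were Itga1 (0.37 away), Bcam (0.39 away) and Sgcd (0.42 away). The nearest to Lama4 were Smoc1 (1.83 away), Tinagl1 (2.44 away) and Col15a1 (3.33 away), all with smaller gains. This likeness is that of a single ratio between 2 combined values.

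Laminin is joined in the basement membrane to a network of type IV collagen, nidogens and proteoglycans, and these partners changed in both directions. Of the 20 listed partners, 16 had a test, and 5 were called higher, 3 lower and 8 not called, beside 6.35% and 7.17% of all tested genes. In the authors' deposited table their median log2 fold change was 0.03, against -0.06 for all tested genes. The heparan sulfate proteoglycan perlecan (Hspg2) rose to 94.3 FPKM in STHdhQ111, against 35.4 FPKM in STHdhQ7. Tinagl1, a secreted matrix protein, rose to 129 FPKM in STHdhQ111, against 11.2 FPKM in STHdhQ7. The calcium-binding matrix proteins Smoc2 (9.18 FPKM in STHdhQ111 and 3.17 FPKM in STHdhQ7) and Smoc1 (0.682 FPKM in STHdhQ111 and 0.0387 FPKM in STHdhQ7) were called higher. Col15a1, a collagen of the outer basement membrane zone, was also called higher, at 0.665 FPKM in STHdhQ111 and 0.107 FPKM in STHdhQ7.

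The partners called lower included chains of the collagen network. Col4a1, a chain of the common type IV collagen, fell to 26.3 FPKM in STHdhQ111, against 66.2 FPKM in STHdhQ7. Its partner chain Col4a2 was listed at 25.6 FPKM in STHdhQ111 and 47.4 FPKM in STHdhQ7 and was not called. Col4a6 fell to 0.960 FPKM in STHdhQ111, against 14.9 FPKM in STHdhQ7. Fras1, a protein of epithelial basement membranes, was called lower at 0.0295 FPKM in STHdhQ111 and 0.519 FPKM in STHdhQ7. The nidogens, which bridge laminin and collagen by binding the gamma chain of Lamc1, were not called. Nid1 was listed at 20.1 FPKM in STHdhQ111 and 19.1 FPKM in STHdhQ7, and Nid2 at 24.7 FPKM in STHdhQ111 and 30.6 FPKM in STHdhQ7. The abundant Sparc and Col18a1 were not called either.

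Several receptors that bind laminin were lower in STHdhQ111. Of the 14 listed receptors and their partners, 13 had a test, and 4 were called lower, 1 higher and 8 not called, beside 7.17% and 6.35% of all tested genes. In the authors' deposited table the median log2 fold change of the list was -0.37, against -0.06 for all tested genes. Itga7, an integrin subunit of muscle that binds laminin, fell to 1.09 FPKM in STHdhQ111, against 30.4 FPKM in STHdhQ7. Itgb4, the integrin subunit that ties epithelial cells to laminin, fell to 4.95 FPKM in STHdhQ111, against 31.5 FPKM in STHdhQ7. Bcam, a receptor of the immunoglobulin family that binds the Lama5 product, fell to 10.6 FPKM in STHdhQ111, against 30.4 FPKM in STHdhQ7.

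Itga3, an integrin subunit for laminins of epithelia, fell to 20.9 FPKM in STHdhQ111, against 42.5 FPKM in STHdhQ7, with a q of 0.0469 in the authors' deposited table, close to the threshold. Sdc3, a cell surface proteoglycan, rose to 45.2 FPKM in STHdhQ111, against 18.4 FPKM in STHdhQ7. The shared integrin subunit Itgb1 was listed at 194 FPKM in STHdhQ111 and 179 FPKM in STHdhQ7 and was not called. Dystroglycan (Dag1) was listed at 47.0 FPKM in STHdhQ111 and 47.4 FPKM in STHdhQ7, with an implied standard error of 0.37 for its log2 fold change of -0.01 in the authors' deposited table. Itgb1 and Dag1 were thus listed at like levels in both lines.

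**Figure D4:**
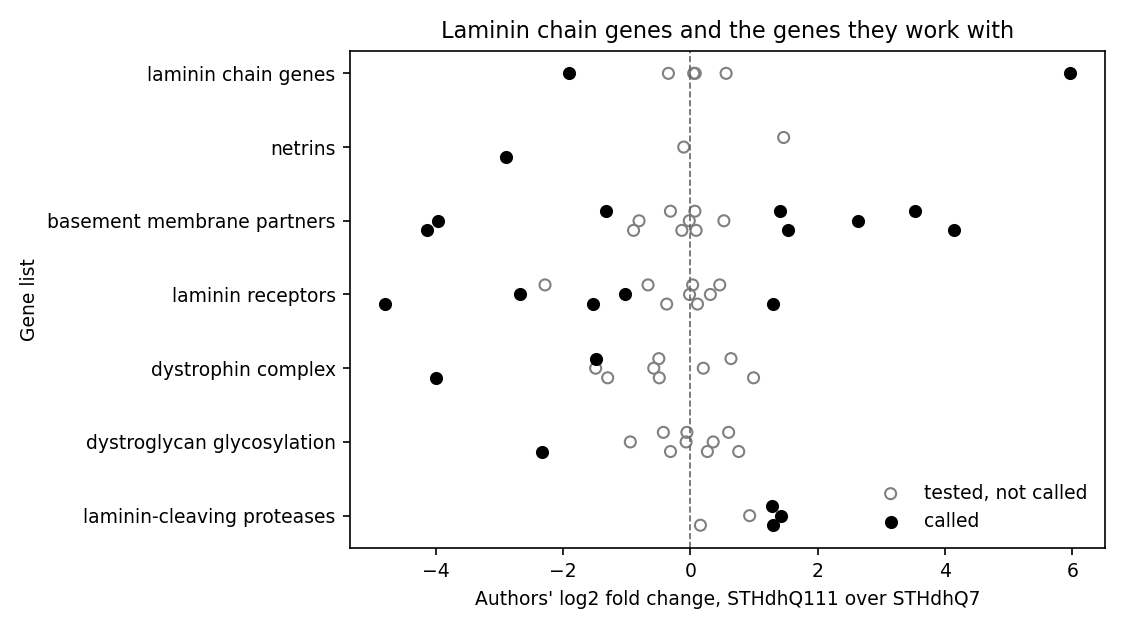
The authors' log2 fold change, STHdhQ111 over STHdhQ7, of every tested gene of the laminin chain genes and 6 related lists, with filled points for called genes and open points for tested genes that were not called. Points are spread vertically within a list only to keep them apart. The receptors hold 4 filled points below 0 and 1 above, and the 3 filled proteases all lie above 0.

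Behind dystroglycan, the dystrophin complex links laminin to the cytoskeleton. Of its 13 listed genes, 10 had a test, and 2 were called lower and 8 not called, beside 7.17% of all tested genes called lower. The median log2 fold change was -0.53 in the authors' deposited table, against -0.06 for all tested genes. Sspn, a membrane protein of the complex, fell to 2.62 FPKM in STHdhQ111, against 7.32 FPKM in STHdhQ7. Dtna, a dystrobrevin, fell to 0.616 FPKM in STHdhQ111, against 9.77 FPKM in STHdhQ7. Utrn, the dystrophin relative of non-muscle cells, was listed at 26.9 FPKM in STHdhQ111 and 23.4 FPKM in STHdhQ7 and was not called. The enzymes that put laminin-binding sugars on dystroglycan had 11 genes in the table and 10 with a test, of which Ispd was called lower and 9 were not called. That count is near the 7.17% of all tested genes called lower, and the median log2 fold change was -0.06 in the authors' deposited table for both the enzymes and all tested genes. Ispd was listed at 0.239 FPKM in STHdhQ111 and 1.20 FPKM in STHdhQ7.

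Some proteases known to cut laminin chains, or to start the cascade that does, were higher in STHdhQ111. Of the 9 listed, 5 had a test, and 3 were called higher and 2 not called, beside 6.35% of all tested genes called higher. Their median log2 fold change was 1.29 in the authors' deposited table, against -0.06 for all tested genes. Mmp14, a membrane-bound metalloproteinase, rose to 226 FPKM in STHdhQ111, against 91.6 FPKM in STHdhQ7. Mmp2, a secreted metalloproteinase that Mmp14 activates, rose to 166 FPKM in STHdhQ111, against 62.2 FPKM in STHdhQ7. Plau, the urokinase that activates plasminogen, rose to 39.0 FPKM in STHdhQ111, against 16.0 FPKM in STHdhQ7, while plasminogen itself (Plg) was at 0 in both lines.

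Netrins carry domains related to the short arms of laminin. Of the 6 listed, 3 had a test, with 1 called lower and 2 not called, beside 7.17% of all tested genes called lower. Their median log2 fold change was -0.10 in the authors' deposited table, against -0.06 for all tested genes. Ntn4, a netrin that binds laminin gamma chains and hinders laminin assembly, fell to 2.50 FPKM in STHdhQ111, against 18.6 FPKM in STHdhQ7. For Ntn4 the authors' deposited table gives a log2 fold change of -2.89 (implied standard error 0.62) and a q of 6.23e-05. The axon guidance netrin Ntn1 was listed at 12.1 FPKM in STHdhQ111 and 13.02 FPKM in STHdhQ7 and was not called.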

How the data were processed

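Polyadenylated RNA was fragmented and copied with random primers by a method not described as keeping strand, per the labels' protocols. TopHat 1.4.0, Bowtie 0.12.7, Cufflinks 2.0.2, Cuffdiff and build mm9 were used, per the submitters' processing notes, while the sources used here give neither annotation nor scaling. The deposited table holds the authors' FPKM, 1 combined value per line and gene, and their log2 fold change (STHdhQ111 over STHdhQ7), statistic, p-value and q-value, per the file headers. No label says that separate cultures were used, so the spread behind the authors' p-values may be technical. Depth is unknown.

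The implied standard error is the log2 fold change over the statistic. The 95% interval is 1.96 errors either side. The deposited p-value equalled the normal tail to within 2.7e-06 and the q-value a Benjamini-Hochberg adjustment of it over all tested genes to within 2.2e-06. Locus starts were raised by 1, since the end minus the start as deposited gave the RefSeq length of Lama4 and Lamc1. Promoters are from RefSeq (GRCm38.p6), with windows read for 5 of the 9 genes, and coding lengths from GENCODE M21. Lama1, Lama4 and Lamc1 had no promoter entry. Windows on chromosome 18, where Lama3 lies, were left out when the 9 genes were looked up.

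The laminin genes, 6 related lists and 11 marker lists were chosen with earlier results of these data known. By rule, all 9 genes and all called list genes were named, with up to 3 abundant uncalled genes per list, neighbours of called genes and the 3 list genes nearest in fold change; not all that the rule allows are given, and Cldn5, Pecam1, Cdh5 and the other marker genes, Lamc3, Col4a2, Nid1, Nid2, Dag1, Plg and the genes of the closing section were named after their values were seen. Of 20 dystroglycan enzyme symbols, older and newer names together, 11 were in the table. Python 3.11.15, numpy 2.4.6, pandas 2.3.3, scipy 1.17.1 and matplotlib 3.10.9 were used, and steps were tested on simulated data. A gene that the rule would name is not reported here. The alternatives were other thresholds, adjustments, minimum levels, pseudocounts, recentring and sets of genes.

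Of the other marker lists, astrocyte (4 genes), oligodendrocyte (5 genes) and microglia (5 genes) had 1 tested gene each. Of these, only Cd68, of the microglia list, was called, at 72.4 FPKM in STHdhQ111 and 26.5 FPKM in STHdhQ7. The other 4 genes of the microglia list had no test and were under 0.5 FPKM in both lines, so Cd68 does not speak for that list.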

Additional observations from a re-analysis of the deposited data

How the results depend on the processing

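Lama4 stayed called in each of the 5 other ways of calling genes, but none of them could have dropped it. All reuse the authors' deposited p-value, which is printed as 0 for Lama4. It passes the expression minimums only through its level in STHdhQ111. Of the 9 genes, 1 in place of 2 was called at a q of 0.01 and with Bonferroni. The same held with Benjamini-Hochberg over genes that averaged at least 1 FPKM. The lists together held 20 called genes, and 6 with Bonferroni. With Bonferroni the basement membrane partners held 3 in place of 8, the receptors 2 in place of 5, and the dystrophin complex, the dystroglycan enzymes and the proteases 0 in place of 2, 1 and 3. At a q of 0.01 the proteases held 1 in place of 3, the dystrophin complex 1 in place of 2, and the dystroglycan enzymes gave no call, as over genes that averaged at least 1 FPKM. The dystrophin complex held 3 at a q of 0.1, and the partners 5 with either expression minimum. The log2 ratio of Lama4 was 5.16 with 0.1 FPKM added and 3.01 with 1 FPKM added, and that of Lama2 was -0.74 with 1 FPKM added, since a pseudocount shrinks low values by construction. Recentring by the median (-0.05) changed no call or direction of the 6 tested genes. Without untested genes, the chain sums moved by less than the smallest implied error (0.39 on the log2 scale). So did the Lama4 and Lama5 shares of the alpha sum. The untested genes hold so little of any sum that no larger move was possible. Lamc3 enters only the gamma sum, which also moved by less than that error. Adding Lamc3 could not change the alpha and beta sums or the shares. It was a choice made after seeing the data, in place of a planned larger set that was not run. No paired analysis was possible because each line has 1 combined value, and for the same reason no replicate could be left out. Unknown depth limits what can be said of Lama1, Lama3 and Lamb3.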

Other observations

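Lama1 and Lama3, which had no test, each lie near a gene that was called, chosen here after the values were seen. Arhgap28, which lies 20.1 kb from Lama1, was listed at 13.05 FPKM in STHdhQ111 and 0.217 FPKM in STHdhQ7. The authors' deposited table gives it a log2 fold change of 5.91 and a q of 0. Lama1 itself was listed at 0.0476 FPKM in STHdhQ111 and 0.00285 FPKM in STHdhQ7. Ankrd29, an ankyrin repeat gene 28.3 kb from Lama3, was listed at 0.182 FPKM in STHdhQ111 and 2.51 FPKM in STHdhQ7 and was called lower (the authors' q = 0.000183 in their deposited table).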
